A study of Mus musculus with 18 samples.

Results

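A set of 8 genes of the striatal projection neuron lineage, Gsx2, Isl1, Ebf1, Six3, Rarb, Penk, Tac1 and Drd1, were followed across all 18 libraries of a study of the embryonic mouse cerebral cortex. Their 8 rows were found by Ensembl identifier among the 55153 genes of the RNA-seq table and the 54838 genes of the Ribo-seq table, and all 8 passed the filter on low counts in every comparison. The genes were chosen by their place in the striatal lineage and with earlier results of these libraries in view, among them their levels and their fold changes between genotypes. The values and calls given here for them are therefore a description and not independent support of a change, and no P value is adjusted over the 8 genes alone.

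Cortices were taken at embryonic day 15.5 (E15.5) from mice of the labelled strain C57BL/6 in 3 groups, with 3 libraries per group in each assay, which the labels call biological repeats. The Ctrl group was wild type, F-cKO carried floxed Fto alleles (Fto f/f) with Emx1-cre, and M-cKO carried floxed Mettl3 alleles (Mettl3 f/f) with Emx1-cre. Emx1-Cre drives recombination from a promoter active in the cerebral cortex, and it is present in both knockouts but not in Ctrl. The study's methods give the floxed lines a mixed background of C57/BL6 and 129, which the strain label does not show. RNA-seq measured transcript levels, and Ribo-seq, which sequences the fragments protected by ribosomes after RNase I digestion, measured ribosome occupancy. The labels do not say whether a library holds 1 or several embryos, and the study's methods may describe the Ribo-seq samples as coming from a single litter, so P values measure the spread between these libraries. Fto encodes an m6A demethylase and Mettl3 the catalytic subunit of the m6A methyltransferase.

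Striatal projection neurons are the GABAergic output neurons of the striatum. They arise from the lateral ganglionic eminence, a ventral part of the forebrain that lies next to the cortex, where the homeobox gene Gsx2 marks and patterns progenitors. Neurons of the direct pathway use Isl1 and Ebf1 during differentiation and later express the dopamine receptor Drd1 and the neuropeptide precursor Tac1, while neurons of the indirect pathway depend on Six3 and express the enkephalin precursor Penk together with the dopamine receptor Drd2. Rarb encodes a retinoic acid receptor, and retinoid signalling acts in the developing striatum. None of these programmes is the main programme of the dorsal cortex, although single members are also used there: Penk, Tac1 and Drd1 are expressed by some cortical neurons.

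RefSeq on assembly GRCm38.p6 places Gsx2 at chr5:75075601-75077893, Isl1 at chr13:116298270-116309688, Ebf1 at chr11:44618100-45008096, Six3 at chr17:85613608-85626191, Rarb at chr14:16430839-17082331, Penk at chr4:4133536-4138815, Tac1 at chr6:7555061-7562978 and Drd1 at chr13:54051183-54055658. All 8 are protein-coding. Six3 overlaps the long noncoding RNA gene Six3os1, and whether reads were counted by strand is not given in the sources used here, so part of its count may come from that gene. Rarb spans 4 annotated pseudogenes.

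Of the 8 genes, 7 had entries among the RefSeq promoter sequences, with 9 regions in all, of which the 250 bases before the start were searched on both strands. The motifs were the retinoic acid response element (GGTTCA and AGTTCA with 5 bases between them), the cyclic AMP response element TGACGTCA, its variant TGCGTCA, the homeodomain core TAATTA, the E-box CACGTG and the TATA box TATAAA. The 4 regions that hold a match are shown, and no others, with matches in capitals and all sequences written 5′ to 3′ on the gene's strand.
Gsx2 (chr5:75075351-75075600, plus strand): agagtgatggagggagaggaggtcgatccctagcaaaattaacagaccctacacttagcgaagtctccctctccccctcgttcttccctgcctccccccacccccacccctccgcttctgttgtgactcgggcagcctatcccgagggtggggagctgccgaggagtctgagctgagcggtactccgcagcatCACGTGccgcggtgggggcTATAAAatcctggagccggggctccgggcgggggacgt
Isl1 (chr13:116309689-116309938, minus strand): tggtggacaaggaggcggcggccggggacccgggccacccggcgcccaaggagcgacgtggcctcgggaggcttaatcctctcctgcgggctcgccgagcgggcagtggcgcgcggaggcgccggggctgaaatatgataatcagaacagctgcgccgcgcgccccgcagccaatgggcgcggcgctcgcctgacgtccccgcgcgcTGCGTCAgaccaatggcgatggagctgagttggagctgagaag
Rarb (chr14:16575477-16575726, minus strand): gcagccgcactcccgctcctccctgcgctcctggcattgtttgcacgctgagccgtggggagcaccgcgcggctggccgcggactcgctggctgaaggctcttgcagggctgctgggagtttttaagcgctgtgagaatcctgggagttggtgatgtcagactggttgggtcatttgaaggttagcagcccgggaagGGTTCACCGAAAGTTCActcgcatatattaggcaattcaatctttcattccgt
Tac1 (chr6:7554811-7555060, plus strand): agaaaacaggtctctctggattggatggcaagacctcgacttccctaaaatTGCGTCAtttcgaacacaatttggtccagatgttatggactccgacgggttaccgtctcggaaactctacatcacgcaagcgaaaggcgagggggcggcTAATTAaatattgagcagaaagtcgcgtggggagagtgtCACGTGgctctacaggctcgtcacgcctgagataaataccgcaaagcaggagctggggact
The capitals in Rarb mark the direct repeat through which this receptor gene is known to respond to retinoic acid, 53 to 37 bases before the start. It was found in 2 of the 32851 promoter regions of the same length (0.00609%). The capitals in Isl1 mark TGCGTCA, 43 to 37 bases before the start, which 1.75% of all regions hold. Tac1 holds TGCGTCA 199 to 193, TAATTA 100 to 95 and CACGTG 61 to 56 bases before the start. Gsx2 holds CACGTG 57 to 52 and TATAAA 38 to 33 bases before the start. TAATTA was present in 4.84%, CACGTG in 6.02% and TATAAA in 12.4% of all regions. TGACGTCA, present in 1.55% of all regions, was in none of the 9. No motif was shared by all of the 4 regions, TGCGTCA and CACGTG being in 2 of them each. The regions of Ebf1, Six3 and Drd1 held none of the 6 motifs. The Rarb entry starts inside the span of the gene given above, at an internal start. A match describes letters in this window and is not evidence that a factor binds there.

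The libraries held 18504094 to 22592406 counted reads in RNA-seq and 10973699 to 35853227 in Ribo-seq. Fto fell in F-cKO in RNA-seq (log2 fold change -1.21, adjusted P = 0.0298), and F-cKO replicate 2 kept 7.56 FPKM (fragments scaled to transcript length and library size), against 3.26 and 2.43 in the other F-cKO libraries and at least 8.37 in Ctrl. In Ribo-seq Fto was 2.11 to 4.04 RPKM (reads scaled in the same way) in F-cKO and at least 17.6 in Ctrl. Mettl3 was higher in M-cKO in RNA-seq (log2 fold change 0.50, adjusted P = 0.00221) and lower in Ribo-seq (log2 fold change -0.55, adjusted P = 0.0157). The RNA-seq level of Mettl3 goes against the label, and since its gene-level count includes exons outside the deleted part, it does not check the deletion. Groups are named by their labels throughout. Cortical identity was checked with 16 pallial genes, such as Neurod2, Tbr1 and Emx1, which summed to 1089 to 1426 FPKM in the RNA-seq libraries, and none of the 16 was below 0.1 in all libraries of either assay.

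All 8 striatal genes were scarce in Ctrl cortex. The mean RNA-seq levels were 1.78 ± 0.183 FPKM for Drd1, 1.37 ± 0.411 for Penk, 0.944 ± 0.160 for Gsx2, 0.579 ± 0.245 for Isl1, 0.560 ± 0.168 for Six3, 0.350 ± 0.0200 for Ebf1, 0.324 ± 0.0465 for Tac1 and 0.168 ± 0.120 for Rarb (SD, n = 3 each). In that order the ranges of neighbours overlapped except between Six3 and Ebf1. In M-cKO the order was another, with Isl1 at 4.10 ± 1.76 FPKM, Six3 at 3.20 ± 0.913, Gsx2 at 3.02 ± 0.608, Penk at 2.69 ± 0.344, Tac1 at 2.30 ± 1.19, Ebf1 at 1.86 ± 0.683, Drd1 at 1.72 ± 0.394 and Rarb at 0.745 ± 0.251 (SD, n = 3 each). There the ranges of neighbours overlapped except between Drd1 and Rarb. In F-cKO the means ran from 0.319 FPKM for Rarb to 2.06 for Drd1, and all neighbours overlapped. The summed level of the 8 genes was 5.53 to 6.87 FPKM in Ctrl. The F-cKO libraries, at 8.06 to 15.6, and the M-cKO libraries, at 13.3 to 23.5, all lay above that, and the knockouts overlapped each other. In such bulk tissue, more cells of a type and more RNA per cell cannot be told apart.

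**Figure D1:**
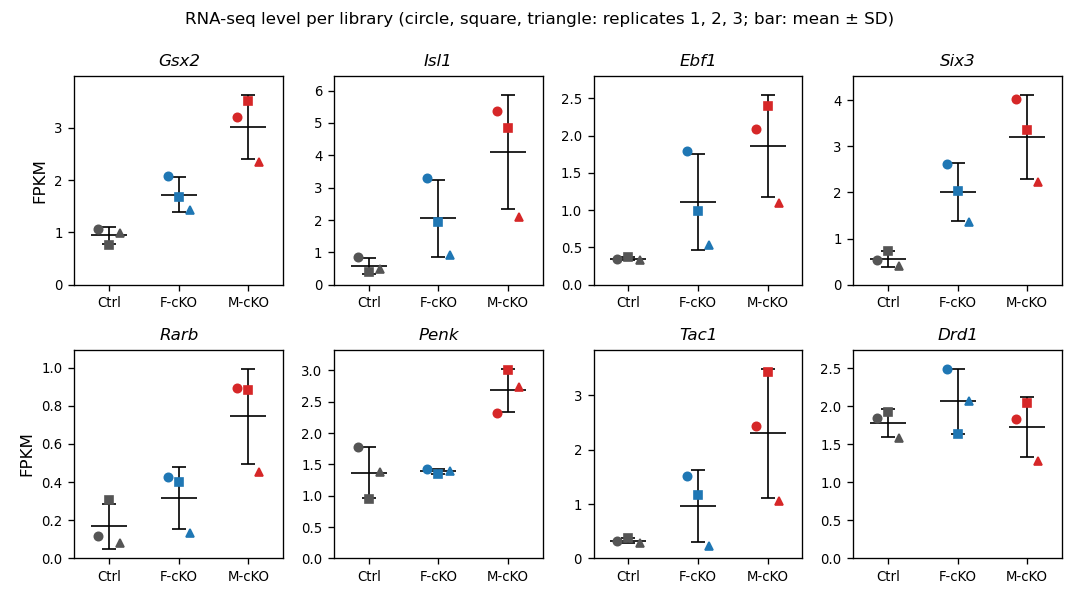
RNA-seq level (FPKM, linear axis) of each gene in each of the 9 libraries, with 1 panel per gene. Symbols are replicates and bars the mean ± SD of 3 libraries. The lowest M-cKO library exceeds the highest Ctrl library for 7 genes, and the groups overlap for Drd1.

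In M-cKO, transcripts of the progenitor factor, the postmitotic transcription factors and both neuropeptide precursors were higher than in Ctrl. The quasi-likelihood test of edgeR, adjusted over all 16968 genes tested (called at an adjusted P below 0.05), called 7 of the 8 genes higher and none lower, where 15.5% of all genes tested were called higher and 14.1% lower. The lowest M-cKO library exceeded the highest Ctrl library for the same 7 genes, as it did for 22.6% of all genes. The median log2 fold change of the 8 was 2.26. Drd1, the receptor of mature direct pathway neurons, was the exception.

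Gsx2, which acts in progenitors of the lateral ganglionic eminence, was at 1.07, 0.765 and 0.995 FPKM in the Ctrl libraries and at 3.20, 3.51 and 2.34 in M-cKO. The groups did not overlap and the fold was 3.17 (log2 fold change 1.66, SE 0.23, adjusted P = 0.000383).

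Isl1, a LIM homeobox factor of direct pathway neurons, was at 0.857, 0.393 and 0.486 FPKM in Ctrl and at 5.38, 4.84 and 2.09 in M-cKO. Every M-cKO library was above every Ctrl library, with replicate 3 well below the other M-cKO libraries, and the fold was 6.97 (log2 fold change 2.80, SE 0.36, adjusted P = 0.000253). Ebf1, a helix-loop-helix factor that acts in the same neurons, had a narrow Ctrl range of 0.343, 0.372 and 0.334 FPKM, against 2.09, 2.40 and 1.09 in M-cKO (fold 5.27, log2 fold change 2.40, SE 0.26, adjusted P = 9.38e-05). Here too the M-cKO libraries stood apart from Ctrl and replicate 3 was the lowest of them.

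Six3, a homeobox factor of the indirect pathway, rose from 0.541, 0.736 and 0.402 FPKM in Ctrl to 4.02, 3.36 and 2.22 in M-cKO (fold 5.64, log2 fold change 2.50, SE 0.25, adjusted P = 6.05e-05). Its lowest M-cKO library was above its highest Ctrl library. Rarb was the scarcest of the 8, with 14, 34 and 8 counts in Ctrl (0.119, 0.305 and 0.0812 FPKM) and 107, 94 and 53 in M-cKO (0.895, 0.884 and 0.455 FPKM). It rose 4.34-fold (log2 fold change 2.12, SE 0.42, adjusted P = 0.00317), the widest standard error of the 7 genes called, and the groups did not overlap. With 1 library left out its log2 fold change was 1.82 to 2.86, highest without Ctrl replicate 2.

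Tac1, the precursor of substance P, was at 0.315, 0.375 and 0.283 FPKM in Ctrl and at 2.44, 3.42 and 1.05 in M-cKO, a 7.0-fold rise (log2 fold change 2.81, SE 0.40, adjusted P = 0.000417). Penk had the smallest rise of the 7, from 1.78, 0.952 and 1.37 FPKM to 2.32, 3.00 and 2.74 (fold 1.95, log2 fold change 0.96, SE 0.24, adjusted P = 0.0104). Neither peptide gene overlapped between the groups. Drd1 was at 1.85, 1.92 and 1.58 FPKM in Ctrl and at 1.83, 2.05 and 1.28 in M-cKO, ranges that overlapped. Its log2 fold change was -0.06 (95% interval -0.47 to 0.35, adjusted P = 0.837). All 7 calls held when any single library was left out.

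In F-cKO the same comparison called 4 of the 8 genes higher and none lower, where 11.5% of the 16944 genes tested were called higher and 9.57% lower. All F-cKO libraries lay above all Ctrl libraries for these 4 genes and for 20.9% of all genes. This comparison shares its 3 Ctrl libraries with the M-cKO comparison, so the values of the knockouts are not independent of each other. The genes called were transcription factors. DESeq2 and the fit with no filter on low counts each called 5 of the 8, with the peptide gene Tac1 added (adjusted P = 0.0139 and 1.85e-06).

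Six3 was at 2.62, 2.03 and 1.37 FPKM in F-cKO, above all Ctrl libraries (fold 3.54, log2 fold change 1.82, SE 0.27, adjusted P = 0.00409). Isl1 was at 3.29, 1.94 and 0.924 FPKM (fold 3.49, log2 fold change 1.80, SE 0.44, adjusted P = 0.0191) and Ebf1 at 1.80, 0.987 and 0.527 (fold 3.12, log2 fold change 1.64, SE 0.37, adjusted P = 0.015). In both, replicate 1 was more than 3 times replicate 3, and replicate 3 was still above the highest Ctrl library. Gsx2 was at 2.07, 1.67 and 1.42 FPKM, also without overlap (fold 1.81, log2 fold change 0.85, SE 0.25, adjusted P = 0.0348).

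Tac1 was at 1.52, 1.17 and 0.232 FPKM, so that replicate 3 lay below all 3 Ctrl libraries while the others lay above them, and its log2 fold change of 1.56 (SE 0.55) missed the threshold (adjusted P = 0.0687). Without F-cKO replicate 3 it was 2.03 (adjusted P = 0.00348). Rarb, at 0.425, 0.399 and 0.132 FPKM, overlapped Ctrl (log2 fold change 0.89, 95% interval -0.32 to 2.10, adjusted P = 0.265). Penk was at 1.43, 1.35 and 1.39 FPKM, inside the Ctrl range (log2 fold change 0.01, 95% interval -0.57 to 0.58). Drd1 was at 2.49, 1.63 and 2.07 FPKM (log2 fold change 0.20, 95% interval -0.20 to 0.60, adjusted P = 0.464).

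The F-cKO calls depended on single libraries. The number of genes called fell to 3 without Ctrl replicate 1 or F-cKO replicate 1, to 2 without Ctrl replicate 2 or F-cKO replicate 2, the library with the high Fto level, and to 1, Six3, without Ctrl replicate 3. It rose to 5 without F-cKO replicate 3. Six3 was called in all 6 of these fits, whereas Gsx2 was lost in 5 of them (adjusted P 0.0611 to 0.103).

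The order of the libraries within a group was compared across the 8 genes, as a description with no test. In RNA-seq, F-cKO replicate 1 was the highest of its group for 8 of 8 genes and replicate 3 the lowest for 6. M-cKO replicate 3 was the lowest for 7 of 8, Penk being the exception. In Ctrl replicate 2 was the highest for 5 genes and the lowest for the other 3, and replicate 3 was the lowest for 5. Replicate 3 of each knockout was also the lowest of its group in the summed level of 20 interneuron genes, with 286, 262 and 201 FPKM in F-cKO replicates 1, 2 and 3 and 380, 378 and 338 in M-cKO, against 295 to 313 in Ctrl. It was the lowest too for 38 other genes of the striatal lineage. They summed to 428, 376 and 334 FPKM in F-cKO replicates 1, 2 and 3 and to 488, 483 and 410 in M-cKO. Other lists differed from this order in 1 or both knockouts. The septal and preoptic sum was 27.5, 34.2 and 37.8 FPKM in F-cKO replicates 1, 2 and 3 and 59.0, 44.8 and 47.6 in M-cKO, and the thalamic and hypothalamic sum was 3.81, 5.51 and 4.84 in F-cKO and 5.73, 5.09 and 4.05 in M-cKO. The part of this in the results was not tested.

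**Figure D2:**
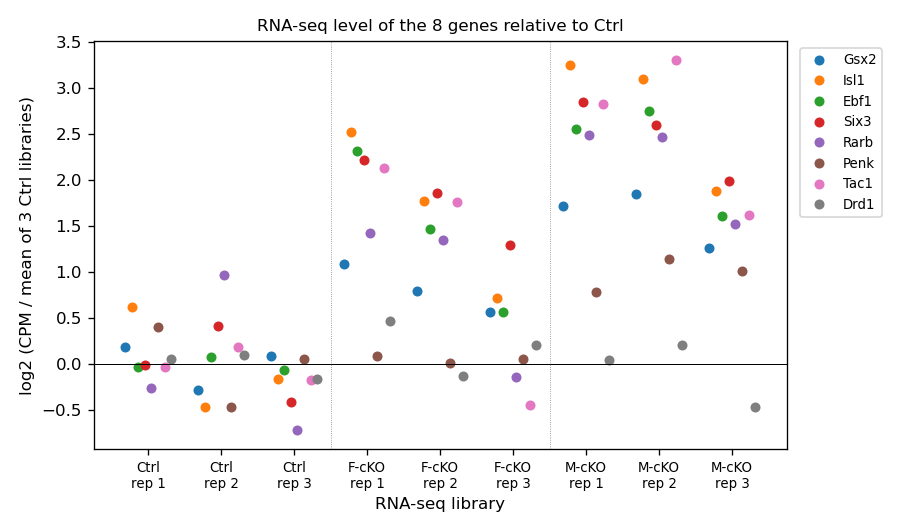
RNA-seq log2 ratio of each gene's CPM (counts scaled to library size) to the mean of the 3 Ctrl libraries, for the 9 libraries on the horizontal axis, with 1 colour per gene. Isl1, Ebf1, Six3, Rarb and Tac1 sit between 1.53 and 3.30 in all M-cKO libraries, while F-cKO replicate 3 has Tac1 at -0.44 and Rarb at -0.13.

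Set against each other, the knockouts differed in 3 of the 8 genes. M-cKO exceeded F-cKO in Penk (fold 1.92, log2 fold change 0.94, SE 0.20, adjusted P = 0.00628), Gsx2 (fold 1.74, log2 fold change 0.80, SE 0.22, adjusted P = 0.0227) and Rarb (fold 2.33, log2 fold change 1.22, SE 0.39, adjusted P = 0.0401), where 13.1% of the 16802 genes tested were called higher and 14.3% lower. The libraries of the groups did not overlap for these 3 genes, with all of M-cKO above all of F-cKO as in 21.2% of all genes. For Isl1, Ebf1, Six3 and Tac1 the log2 difference was 0.67 to 1.24 in the same direction with adjusted P from 0.0632 to 0.161. These calls depended on the processing. DESeq2 also called Six3 (adjusted P = 0.0122), the fit with no filter on low counts called 7 of the 8 genes, with Isl1, Ebf1, Six3 and Tac1 added, and with all 3 groups in 1 fit Rarb was no longer called (adjusted P = 0.0571). The number called was 7 without F-cKO replicate 1, 5 without M-cKO replicate 3 and 1, Penk, without any of the other 4 libraries. Drd1 was lower in M-cKO by a log2 difference of -0.27 (95% interval -0.74 to 0.19, adjusted P = 0.361).

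In Ribo-seq all 8 genes had counts in all 9 libraries. Mean levels in Ctrl ran from 0.230 RPKM for Tac1 to 1.03 for Gsx2. In M-cKO, 5 of 8 genes were called higher and none lower (Isl1, Ebf1, Six3, Gsx2 and Tac1), where 7.13% of 14314 genes were called higher and 7.5% lower. The 3 M-cKO values exceeded the 3 Ctrl values throughout for 6 genes, Penk added to the 5, and were below them for 1, Drd1, beside 18.4% and 21% of all genes. The median log2 fold change of the 8 was 2.07.

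Isl1 was at 1.41, 0.451 and 0.433 RPKM in the Ctrl libraries and at 11.2, 9.36 and 1.93 in M-cKO (fold 9.81, log2 fold change 3.29, SE 0.69, adjusted P = 0.0285). The groups did not overlap, although M-cKO replicate 3 was close to the highest Ctrl library. Tac1 was at 0.455, 0.129 and 0.106 RPKM in Ctrl and at 2.97, 2.57 and 0.841 in M-cKO (fold 9.11, log2 fold change 3.19, SE 0.65, adjusted P = 0.026). Six3 was at 1.11, 0.416 and 0.359 RPKM against 5.25, 6.50 and 1.38 (fold 7.01, log2 fold change 2.81, SE 0.62, adjusted P = 0.0324).

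In these 3 genes Ctrl replicate 1 was the highest Ctrl library and M-cKO replicate 3 the lowest M-cKO library. Ebf1 was at 0.927, 0.765 and 0.716 RPKM in Ctrl and at 5.18, 5.49 and 1.33 in M-cKO (fold 5.04, log2 fold change 2.34, SE 0.47, adjusted P = 0.0251). Gsx2 was at 1.50, 0.715 and 0.887 RPKM against 5.03, 3.86 and 2.00 (fold 3.52, log2 fold change 1.81, SE 0.41, adjusted P = 0.0315).

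Rarb and Penk were on the same side without passing the threshold. Rarb was at 0.760, 0.709 and 0.705 RPKM in Ctrl and at 2.09, 1.86 and 0.664 in M-cKO, where replicate 3 fell below Ctrl (log2 fold change 1.10, SE 0.40, adjusted P = 0.102). Penk was at 0.350, 0.340 and 0.391 RPKM against 0.743, 1.46 and 0.583, on 14 to 29 counts per library (log2 fold change 1.35, SE 0.43, adjusted P = 0.0729). Drd1 was at 0.649, 0.733 and 0.704 RPKM in Ctrl and at 0.569, 0.363 and 0.467 in M-cKO, with all M-cKO libraries below all Ctrl libraries (log2 fold change -0.56, 95% interval -1.14 to 0.01, adjusted P = 0.154).

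The footprint calls depended on single libraries. Without M-cKO replicate 3 the test called 7 genes, Rarb and Penk added. Without M-cKO replicate 2 it called 2, without Ctrl replicate 1 it called 1, Tac1, and without Ctrl replicate 2, Ctrl replicate 3 or M-cKO replicate 1 it called 0. The log2 fold changes of the 5 genes stayed between 1.54 (Gsx2) and 4.18 (Tac1) in these fits. With the F-cKO libraries in the same fit, which share in the estimate of the spread, 0 of the 8 genes were called (adjusted P 0.125 to 0.154 for the 5).

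**Figure D3:**
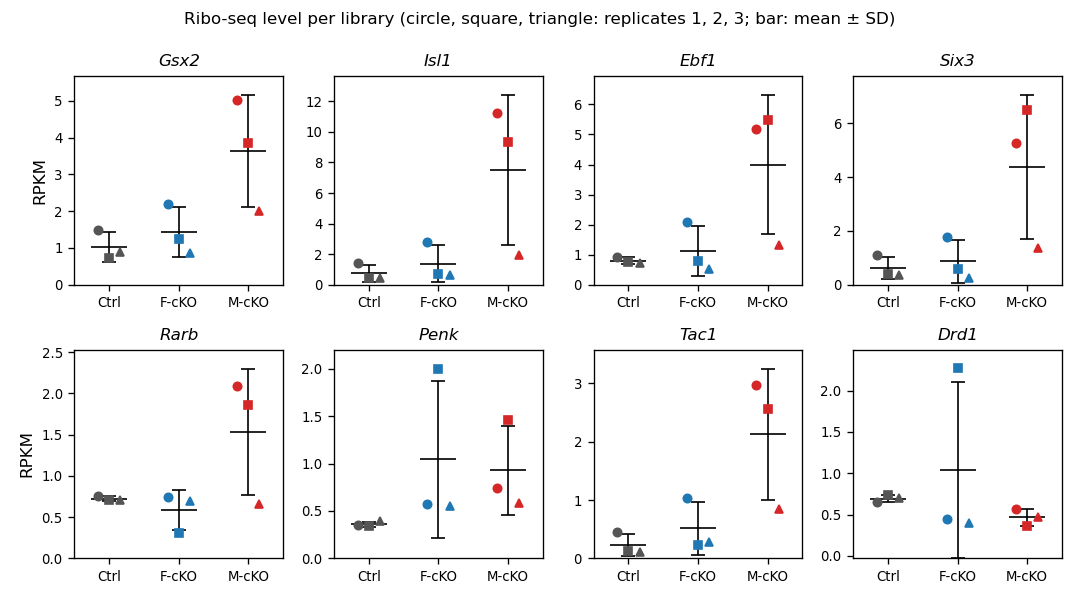
Ribo-seq level (RPKM, linear axis) of each gene in each of the 9 libraries, with 1 panel per gene. Symbols are replicates and bars the mean ± SD of 3 libraries. M-cKO replicate 3 is the lowest M-cKO library for 7 genes, and F-cKO replicate 2 is the highest F-cKO library for Penk and Drd1.

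In F-cKO Ribo-seq no gene was called in either direction out of 14335 tested (0%). The deleted gene Fto was not called either, at a log2 fold change of -2.675 (adjusted P = 0.35). A missing call in this comparison therefore does not show the absence of a change. At an unadjusted P below 0.05 there was 1 of the 8, Penk (higher), beside 1.58% of all genes higher and 0.635% lower, and DESeq2 also called 0 of the 8. Penk was also the single member whose F-cKO libraries all lay above Ctrl, as in 3.66% of all genes. Of the transcription factors, Isl1 was at 2.79, 0.727 and 0.624 RPKM, Ebf1 at 2.09, 0.793 and 0.533 and Six3 at 1.76, 0.583 and 0.247, and each of these ranges overlapped Ctrl. The 95% intervals of the log2 fold change were -0.90 to 2.61 for Isl1, -0.65 to 1.69 for Ebf1 and -1.39 to 2.32 for Six3, and each includes the RNA-seq value of the same gene.

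Penk and Drd1 reached 2.00 and 2.27 RPKM in F-cKO replicate 2, against at most 0.579 and 0.452 in the other F-cKO libraries. In that library 18 genes of neuropeptide and dopamine signalling summed to 138 RPKM, against 24.6 to 36.3 in the other 8 Ribo-seq libraries. The carboxypeptidase gene Cpe alone gave 113 RPKM of that sum. Without this library the log2 fold change of Drd1 turned from 0.67 to -0.73, with neither value called. Between M-cKO and F-cKO no gene of 14262 was called (0%). Of the 8 genes, 6 had an unadjusted P below 0.05, all higher in M-cKO (Isl1, Ebf1, Six3, Gsx2, Rarb and Tac1), at an adjusted P of 0.586, beside 4.98% of all genes higher and 3.11% lower. DESeq2 called 0 of the 8.

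**Figure D4:**
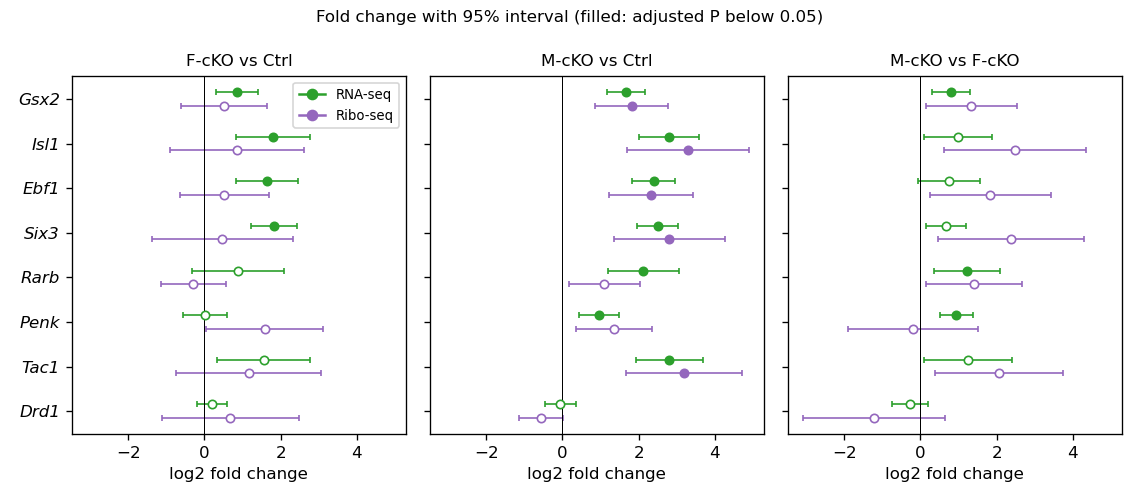
Log2 fold change of each gene with its 95% interval in the 3 comparisons, for RNA-seq and Ribo-seq. Filled points have an adjusted P below 0.05. In M-cKO against Ctrl the intervals of the assays overlap for every gene, from Isl1 (2.80 and 3.29) to Drd1 (-0.06 and -0.56).

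Translational efficiency (TE) sets footprints against transcripts. The change in TE was tested as the interaction of assay and genotype over 12 libraries and was called for 0 of the 8 genes in each of the 3 comparisons, with 0 also at an unadjusted P below 0.05 and 0 by DESeq2. In M-cKO against Ctrl 1.89% of 13208 genes were called higher and 1.18% lower, and in the other comparisons no gene was called. At an unadjusted P below 0.05 the shares of all genes higher and lower were 3.11% and 6.18% for F-cKO against Ctrl, 12.3% and 9.21% for M-cKO against Ctrl, and 2.44% and 1.67% for M-cKO against F-cKO. In M-cKO the TE log2 fold changes ran from -0.96 for Rarb (95% interval -2.35 to 0.44) to 0.55 for Isl1 (95% interval -1.31 to 2.41). With 1 library left out, Rarb ranged from -1.69 to -0.61 and Isl1 from 0.14 to 1.365. With a block for the replicate numbers that Ctrl and M-cKO libraries share across assays, 0 of the 8 were called too, and Rarb was at -1.12 (SE 0.449, adjusted P = 0.172). A change in TE was not detectable, and its absence is not shown. In F-cKO the TE log2 fold changes ran from -1.43 for Six3 (95% interval -3.39 to 0.52) to 1.49 for Penk (95% interval -0.07 to 3.05). With 1 library left out, Six3 ranged from -2.49 to -0.70 and Penk from 0.62 to 1.78.

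As levels, mean RPKM over mean FPKM in Ctrl was 4.31 for Rarb, 2.30 for Ebf1, 1.32 for Isl1, 1.12 for Six3, 1.09 for Gsx2, 0.709 for Tac1, 0.390 for Drd1 and 0.264 for Penk. This ratio has no test here, and leaving libraries out of it was chosen after seeing the data. Without RNA-seq Ctrl replicate 2 it was 7.25 for Rarb, and without Ribo-seq Ctrl replicate 1 it was 0.765 for Isl1, 0.692 for Six3 and 0.361 for Tac1. In M-cKO the same ratio was 2.06 for Rarb, 2.15 for Ebf1, 1.83 for Isl1, 1.37 for Six3, 1.20 for Gsx2, 0.922 for Tac1, 0.346 for Penk and 0.271 for Drd1. In both groups the transcription factor genes had higher ratios than the peptide and receptor genes. In F-cKO they did not, with 1.82 for Rarb, 1.03 for Ebf1, 0.837 for Gsx2, 0.754 for Penk, 0.672 for Isl1, 0.532 for Tac1, 0.505 for Drd1 and 0.430 for Six3. Of these, Ebf1 was at 0.601, Isl1 at 0.329, Tac1 at 0.264 and Six3 at 0.207 without Ribo-seq F-cKO replicate 1, and Penk was at 0.409 and Drd1 at 0.207 without Ribo-seq F-cKO replicate 2.

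The wider striatal list held 38 other genes of the lineage. It is not specific to the striatum, since some of its genes were well expressed in Ctrl cortex. Mean Ctrl RNA-seq levels were 55.8 FPKM for Lmo4, 29.8 for Bcl11b, 24.0 for Meis2 and 12.7 for Dlx2. Others were scarce, such as Rxrg at 0.716 and Ikzf1 at 0.251. Whether a call on this list comes from striatal or cortical cells was not tested. In M-cKO RNA-seq 23 of 35 tested were called higher and 5 lower, with a median log2 fold change of 0.83, where 15.5% of all genes were called higher and 14.1% lower. The 4 with the smallest adjusted P were the retinoid receptor Rxrg (log2 fold change 2.71, adjusted P = 4.63e-05), the transcription factors Bcl11b (0.87, adjusted P = 5.26e-05) and Ikzf1 (2.27, adjusted P = 5.73e-05), and the homeobox gene Dlx2 (1.11, adjusted P = 6.84e-05). The 5 that fell, named here after their values were seen, were Gucy1a1 (-1.08), Rgs9 (-0.65), Pde1b (-0.49), Ppp1r1b (-0.43) and Lmo4 (-0.37), of which Gucy1a1, Rgs9, Pde1b and Ppp1r1b encode signalling proteins of mature projection neurons. Drd2, the receptor that accompanies Penk in the indirect pathway, rose by a log2 fold change of 1.66 (adjusted P = 0.000726), whereas Drd1 did not pass.

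In F-cKO RNA-seq 11 of 33 genes tested from this list were called higher and 3 lower (median log2 fold change 0.32), beside 11.5% and 9.57% of all genes. Bcl11b (0.67, adjusted P = 0.00294), Tshz1 (0.58, adjusted P = 0.00396), Meis2 (0.39, adjusted P = 0.00459) and, in the other direction, Lmo4 (-0.64, adjusted P = 0.00486) had the smallest adjusted P. Between 6 and 15 of the list were called when a library was left out, with 6 without Ctrl replicate 3, 8 without Ctrl replicate 1 and 9 without F-cKO replicate 2. In M-cKO Ribo-seq 14 of 32 were called higher and 4 lower (median log2 fold change 0.86), beside 7.13% and 7.5% of all genes. With all 3 groups in 1 fit, 0 of the list were called. Gucy1a1 (-1.09, adjusted P = 0.00482), Ppp1r1b (-1.09, adjusted P = 0.00504), Bcl11b (0.95, adjusted P = 0.00817) and Pde1b (-0.66, adjusted P = 0.00964) led it. The number called in Ribo-seq was 2 without Ctrl replicate 2, 5 without Ctrl replicate 1 or Ctrl replicate 3, 7 without M-cKO replicate 1, 11 without M-cKO replicate 2 and 23 without M-cKO replicate 3.

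Of 16 genes that carry, make, break down or bind retinoids, 14 were tested in M-cKO RNA-seq, with 7 called higher and none lower and a median log2 fold change of 0.53, beside 15.5% and 14.1% of all genes tested. In Ribo-seq 1 of 14, Crabp1, was called higher in M-cKO, beside 7.13% of all genes, and the median log2 fold change was 0.09. Crabp1, a binding protein for retinoic acid, rose most of the 4 with the smallest adjusted P (2.05, adjusted P = 0.000223), followed by the receptors Rara (0.62, adjusted P = 0.000955) and Rxra (0.60, adjusted P = 0.00281) and the degrading enzyme Cyp26b1 (0.46, adjusted P = 0.00293). In F-cKO RNA-seq 1 of 13 was called higher, Crabp1 (1.25, adjusted P = 0.00673), and 1 lower, the synthesising enzyme Aldh1a2 (-1.87, adjusted P = 0.00907), beside 11.5% and 9.57% of all genes. Among 18 peptide and dopamine genes, 3 of 12 tested were called higher and 3 lower in M-cKO RNA-seq, beside the same 15.5% and 14.1%, led by the prohormone convertase gene Pcsk2 (-1.28, adjusted P = 7.69e-05), Drd2, the tachykinin receptor genes Tacr1 (1.40, adjusted P = 0.00243) and Tacr3 (-1.52, adjusted P = 0.00328). Tacr1 encodes the receptor of substance P. In F-cKO 4 of 12 were called lower, beside 9.57% of all genes, and none higher.

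Genes of other ventral and midline territories were also called, where 15.5% of all genes tested were called higher and 14.1% lower in M-cKO RNA-seq, and 11.5% and 9.57% in F-cKO. Of 20 interneuron genes 12 were called higher and 2 lower in M-cKO, and 4 higher and 6 lower in F-cKO. The M-cKO calls included Slc32a1 (0.86, adjusted P = 5.73e-05), Sst (1.10, adjusted P = 5.84e-05) and Nkx2-1 (2.76, adjusted P = 0.000108), which marks the medial ganglionic eminence and the preoptic area. Npy and Calb2, named here after their values were seen, went the other way. Their means were 76.7 and 14.1 FPKM in Ctrl and 30.5 and 8.79 in M-cKO. The interneuron sums by library are given above. All 5 tested genes of a 7-gene septal and preoptic list were called higher in M-cKO, among them Zic1 (1.17, adjusted P = 8.23e-05), Zic2 and Zic5, with library sums from 22.6 to 28.2 FPKM (Ctrl), 27.5 to 37.8 (F-cKO) and 44.8 to 59.0 (M-cKO). On that list 1 of 5 was called higher in F-cKO. Of 12 thalamic and hypothalamic genes 4 were tested, and Lhx9 (0.65, adjusted P = 0.0121) and Otp (1.95, adjusted P = 0.0294) were called higher in M-cKO and Lhx9 alone in F-cKO, with sums of 2.03 to 3.22, 3.81 to 5.51 and 4.05 to 5.73 FPKM in Ctrl, F-cKO and M-cKO. Of the 8 thalamic and hypothalamic genes that were not tested, Six6, Rax, Nkx2-4, Sim1 and Nr5a1 were below 0.1 FPKM in all RNA-seq libraries. Gbx2 was 0 to 0.0820 FPKM in Ctrl and 0.166 to 0.405 in M-cKO, Hmx2 was at 0 in Ctrl and 0.0154 to 0.192 in M-cKO, and Hmx3 was 0 to 0.0613 in Ctrl and 0 to 0.212 in M-cKO.

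Other neighbouring tissues gave mixed values. Of 14 meningeal and mural genes 6 were called lower in F-cKO and 1 in M-cKO, beside 9.57% and 14.1% of all genes, with none higher, and their sum ranged from 40.2 to 53.5 FPKM (Ctrl), 25.2 to 33.3 (F-cKO) and 29.0 to 59.4 (M-cKO). Choroid plexus genes, 7 in all, summed to 70.1 to 802 FPKM in Ctrl, a range that held all knockout libraries. Ttr carried most of that sum (mean 389 FPKM in Ctrl). In M-cKO 1 of 6 tested was called higher and none lower, beside 15.5% and 14.1% of all genes. None of the 4 tested in F-cKO was called, beside 11.5% and 9.57%. Of 10 sensory, olfactory and retinal genes 2 were tested and none was called in RNA-seq, with sums of 0.932 to 1.59 FPKM over the 9 libraries. Crx and Pou4f2 were below 0.1 FPKM throughout. Of the 16 pallial genes 8 were called higher and none lower in F-cKO, beside 11.5% and 9.57% of all genes, and 5 higher and 2 lower in M-cKO, beside 15.5% and 14.1%. The part of any of these tissues in the levels of the 8 genes was not tested.

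The RNA-seq pattern of each gene over the 9 libraries was compared with that of 13120 other genes with a mean of at least 1 FPKM, by the root mean square difference of log2 CPM ratios to Ctrl, in which smaller is more alike. For Isl1 the nearest were Rxrg (0.589), Zfp503 (0.591) and Nkx2-1 (0.594). For Ebf1 they were Zfp503 (0.302), Rxrg (0.495) and Crabp1 (0.588). For Six3 they were Zfp503 (0.448), Nkx2-1 (0.628) and Crabp1 (0.639). The transcription factor gene Zfp503, which is expressed in the striatum, thus recurred.

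Rarb was nearest to Zfp503 (0.436), Mab21l1 (0.612) and Cdh22 (0.619), and Tac1 to Rxrg (0.376) and Zfp503 (0.570). Gsx2 was nearest to Rgs8 (0.177), Ntn1 (0.219) and Dlx6 (0.230). Astn2 (0.201) and Rwdd3 (0.204) were among the nearest to Penk, and Drd1 was nearest to Abcc9 (0.133), Syt6 (0.150) and Gm17491 (0.156). Smaller values in Gsx2, Penk and Drd1 go with their smaller changes, so the distances are not comparable between genes.

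Among the 8 genes themselves Ebf1 and Six3 were the closest pair (0.363), followed by Isl1 with Ebf1 and Ebf1 with Tac1 (0.415 each), and Isl1 and Drd1 were the farthest apart (1.91). All 9 libraries enter each distance, and no test was made.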

How the data were processed

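The members and the gene lists were chosen with earlier results of these data known. RNA-seq reads were aligned by the authors (Hisat2, version 2.0.5), who deposited a count per gene and FPKM; the tool that counted them is not given in the sources used here. For Ribo-seq, the authors mapped fragments with TopHat2, counted them with HTSeq and deposited a count per gene and RPKM. The submitters' processing notes name the build mm10. Ribo-seq counts are blank in 8 libraries for 40490 genes, none of them a member, and the other 14348 genes were used.

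edgeR 4.0.16 in R 4.3.3 was used on the counts (filterByExpr, minimum count 10, minimum total count 15, TMM, quasi-likelihood test) over the 6 libraries of a comparison, and TE over 12. P values were adjusted by Benjamini-Hochberg over all genes tested and called below 0.05. Samples were grouped by label. Levels are the deposited FPKM and RPKM. Depth differs 1.22-fold in RNA-seq and 3.27-fold in Ribo-seq, and the scarcest member, Rarb, rests on 8 to 34 counts in the Ctrl RNA-seq libraries. Named genes are the members, Mettl3 and Fto, up to 4 called genes with the smallest adjusted P of each list in a comparison described, and the 3 genes nearest to each member in RNA-seq pattern. Some genes that this rule names are not reported here. Alternatives were DESeq2 1.42.0, RLE scaling, no filter on low counts, all groups in 1 fit, a replicate block, counts filled from RPKM for blank genes, and leaving out each library. Same-numbered libraries of different genotypes correlated at -0.278 to 0.163 in their deviations from the group means, so the numbers do not pair them. Between the assays, same-numbered libraries correlated at 0.11 to 0.265 in Ctrl, 0.103 to 0.328 in M-cKO and -0.276 to -0.0186 in F-cKO. Differently numbered libraries reached 0.015 in Ctrl, 0.0374 in M-cKO and 0.248 in F-cKO. A pairing of the assays by number is thus possible in Ctrl and M-cKO, but it is not shown.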

Additional observations from a re-analysis of the deposited data

Results flagged for a closer look

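In RNA-seq, the knockouts differed from each other in 3 of the 8 genes when tested directly. The log2 difference, M-cKO minus F-cKO, was 0.94 for Penk, 1.22 for Rarb and 0.80 for Gsx2, with all M-cKO libraries above all F-cKO libraries in each. Penk kept its call when any single library was left out. Gsx2 and Rarb each lost theirs without F-cKO replicate 2, F-cKO replicate 3, M-cKO replicate 1 or M-cKO replicate 2 (edgeR, adjusted P 0.056 to 0.121), and Rarb also lost its call with all 3 groups in 1 fit (adjusted P = 0.0571). In Ribo-seq the difference was called for none of the 3, and for Penk it had the opposite sign (-0.20, 95% interval -1.90 to 1.5). With 3 libraries per group, no single library was tested as an outlier.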

How the results depend on the processing

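The 7 calls in RNA-seq for M-cKO against Ctrl held in every alternative that left out a library (7 to 7), and the count was also 7 with DESeq2 and with the replicate block. In TE, and in Ribo-seq for F-cKO against Ctrl and M-cKO against F-cKO, the count stayed at 0 whichever library was left out. The other 3 counts of the 8 genes called depended on single libraries. For F-cKO against Ctrl in RNA-seq the count ran from 1 (without Ctrl replicate 3) to 5 (without F-cKO replicate 3). For M-cKO against F-cKO in RNA-seq it ran from 1 (such as without F-cKO replicate 2) to 7 (without F-cKO replicate 1). For M-cKO against Ctrl in Ribo-seq it ran from 0 (without Ctrl replicate 2, Ctrl replicate 3 or M-cKO replicate 1) to 7 (without M-cKO replicate 3). The striatal list gave 6 to 15, 4 to 22 and 2 to 23 in the same comparisons, with the ends of each range at the same libraries, and 24 to 29 for M-cKO against Ctrl in RNA-seq. With no filter on low counts, M-cKO against F-cKO in RNA-seq called 7 of the 8 genes and 27 of the striatal list, in place of 3 and 11. With all 3 groups in 1 fit, M-cKO against Ctrl in Ribo-seq called 0 and 0, in place of 5 and 18. DESeq2 called 8 of the striatal list for M-cKO against F-cKO in Ribo-seq, in place of 0. The cause was not tested.

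The replicate block across genotypes, which the numbers do not justify as a pairing, gave 7 of the 8 genes and 17 of the striatal list for M-cKO against F-cKO in RNA-seq, 3 and 11 for F-cKO against Ctrl, 7 and 28 for M-cKO against Ctrl, and 5 and 15 for M-cKO against Ctrl in Ribo-seq. In TE it turned Ebf1 to -0.11 in M-cKO against Ctrl and Rarb to -0.043 in M-cKO against F-cKO. A replicate block within genotype was added after the data were seen, and its pairing is possible in Ctrl and M-cKO but not shown. It changed no TE call of the 8 genes and turned Drd1 to -0.10 in F-cKO and Ebf1 to -0.15 in M-cKO.

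All 36 log2 fold changes that changed sign belonged to values that were not called. Leaving out a library gave, in RNA-seq, -0.19 to 0.25 for Penk (F-cKO against Ctrl) and -0.20 to 0.12 for Drd1 (M-cKO against Ctrl). In Ribo-seq, F-cKO against Ctrl ranged over -0.093 to 1.66 for Isl1, -0.17 to 0.90 for Ebf1, -0.52 to 1.19 for Six3 and -0.73 to 1.17 for Drd1, and M-cKO against F-cKO over -0.71 to 0.75 for Penk and -1.72 to 0.19 for Drd1. In TE the ranges were -1.39 to 0.56 for Tac1 and -0.93 to 0.75 for Drd1 (F-cKO against Ctrl), -0.35 to 0.39 for Ebf1, -0.080 to 0.59 for Gsx2, -0.092 to 1.09 for Six3 and -0.049 to 0.68 for Penk (M-cKO against Ctrl), -0.023 to 0.61 for Rarb and -1.29 to 0.51 for Drd1 (M-cKO against F-cKO). The TE of Ebf1 in M-cKO against Ctrl was also -0.024 with DESeq2, -0.031 with RLE scaling, -0.00218 with no filter and -0.00724 with blank genes filled. Of the genes named as nearest in pattern, 23 of 24 were shared with a prior count of 0.5 and 11 of 24 with no minimum FPKM.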
